A study of Mus musculus with 17 samples.

Results

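The 10 genes described here encode cyclins, cyclin-dependent kinases, division kinases and a phosphatase. They were chosen for the step from pachynema through meiotic prophase exit to metaphase I, and the part of each gene in it was not tested. They are Ccna1, Ccna2, Ccnb1, Ccnb2, Cdk1, Cdk2, Plk1, Aurkb, Aurkc and Cdc25c. They were listed by function under a rule that uses no H3.3 value, although earlier results of these data were known when the list was made. All are autosomal, 10 of the 20807 autosomal protein-coding genes of GENCODE M21. For each gene, the H3.3 peaks of the Arid1a WT and Arid1a cKO lists that lay within 1 kb of an annotated transcript start or in the gene were collected.

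H3.3 was mapped by CUT&RUN, in which an antibody tethers a nuclease to its target in permeabilized cells and the released DNA fragments are sequenced. The cells were pachytene spermatocytes enriched by Sta-Put sedimentation from pooled testes of adult males. The floxed Arid1a line is on a CD1 background, and the background of the Stra8-Cre line crossed to it was not stated. Arid1a cKO males were Arid1a fl/fl and carried 1 copy of Stra8-Cre, a transgene active from spermatogonia onward, and Arid1a WT males were Arid1a fl/fl or Arid1a fl/+ without Cre, so floxed alleles were present in both groups. Cre excision was incomplete, so the cKO cells can include spermatocytes that kept ARID1A, a subunit of the BAF chromatin remodeler. Of 17 libraries in the series, 2 Arid1a WT and 3 Arid1a cKO libraries used the H3.3 antibody, and the 12 libraries made with ARID1A antibodies were not analysed here.

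Each genotype is 1 deposited list of combined peaks. There is therefore no spread between replicates, no test of the genotype and no error on any value below. The Arid1a WT list held 228 regions, of which 4 were autosomal, and the Arid1a cKO list held 12183 rows that merged into 6552 regions, of which 6179 were autosomal. The sequencing depth is unknown. A list of peaks holds no expression, so the labelled cell type could not be checked against markers.

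H3.3 is a histone variant that is deposited independently of DNA replication, at active gene starts among other places, and accumulates on the silenced X and Y chromosomes in male meiosis. In late prophase I, CDK1 bound to B-type or A-type cyclins is switched on when CDC25 phosphatases remove inhibitory phosphates, and PLK1 and the Aurora kinases act alongside it in chromosome condensation, synaptonemal complex disassembly and spindle attachment. Cyclin A1 and Aurora C are largely germ cell forms, whereas cyclin A2 and Aurora B also serve dividing somatic cells.

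All 4 cyclin genes and both cyclin-dependent kinase genes had an Arid1a cKO H3.3 region within 1 kb of a start, whereas Plk1, Aurkb, Aurkc and Cdc25c had none. The count of 6 of 10 stands beside a background of 29.5% of all autosomal protein-coding genes with such a region. Counting regions anywhere in the gene as well left the count at 6, beside a background of 30.9%. A region covered a start itself in 5 of 10, beside a background of 22.8%. No gene had more than 1 region, and no region lay deeper in a gene body. None of the 10 had an Arid1a WT region within 1 kb of a start or in the gene, beside a background of 0.00961%, which is 2 genes (Abcc9 and Alg9) of 20807.

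**Figure D1:**
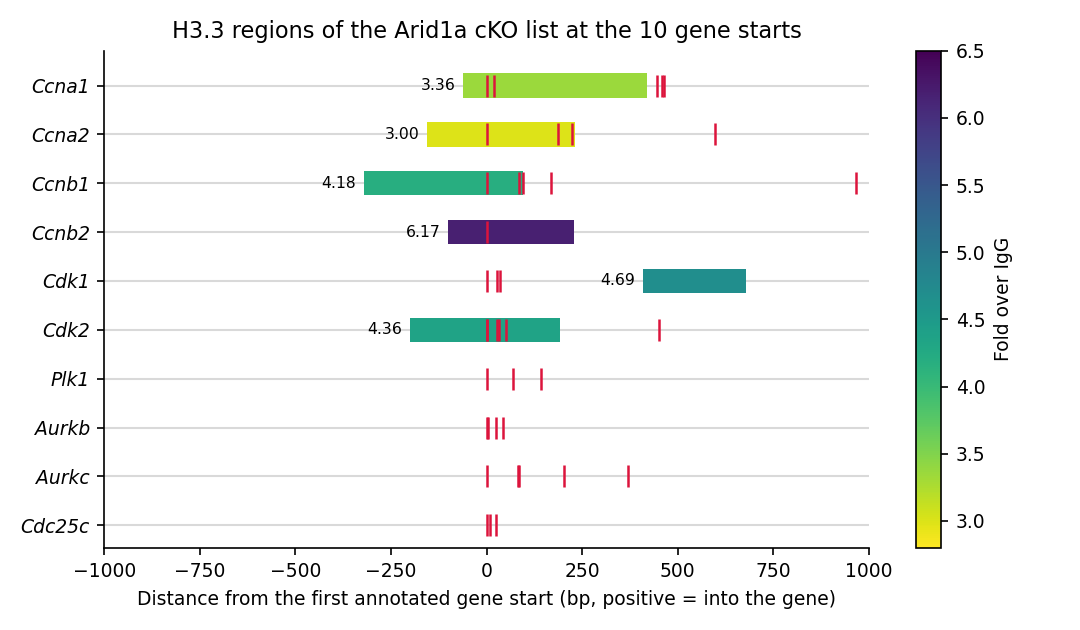
Extent of the Arid1a cKO H3.3 regions (bars, coloured and labelled by fold over IgG) along the distance in bp from the first annotated start of each of the 10 genes, with positive distances into the gene. Red ticks are annotated transcript starts within 1000 bp. Bars cover a start in 5 genes, the Cdk1 bar begins 410 bp into the gene, and the bottom 4 genes have no bar.

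The fold given for a region is the ratio of H3.3 to IgG background pileup, as the peak caller wrote it. The IgG cells came from juvenile testes and the H3.3 cells from adults, and the part of that age difference in any fold, p or q was not tested. The 6 regions spanned folds of 3.00 to 6.17 around a median of 4.27, and the 5617 autosomal cKO start regions (regions within 1 kb of any transcript start) spanned 2.81 to 14.87 around a median of 4.05. The 6 regions lay at a median percentile of 57.7 in that distribution. Their median width was 390 bp, against 436 bp over all start regions. Ordered by fold the genes were Ccnb2, Cdk1, Cdk2, Ccnb1, Ccna1 and Ccna2, and without replicate error no order between neighbours can be established.

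Ccnb2 encodes cyclin B2, a B-type partner of CDK1. It is ENSMUSG00000032218, on the minus strand at chr9:70407692-70421547. Its region, chr9:70421319-70421648, was 330 bp wide and ran from 101 bp upstream of the only annotated start to 228 bp into the gene, over 131 bp of exon and 98 bp of intron. The fold was 6.17, the highest of the 6 and above 91.7% of start regions, with rank 477 of 6552 regions and 950 of 12183 rows. The -log10 q of 7.79 was also the highest of the 6.

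Ccnb1 encodes cyclin B1, the other main mitotic and meiotic partner of CDK1. It is ENSMUSG00000041431, on the minus strand at chr13:100778650-100786570. Its region, chr13:100786475-100786891, was 417 bp wide and lay mostly ahead of the gene, with 321 bp upstream and 96 bp in exon, over 3 of 7 annotated starts. The fold was 4.18, above 54.4% of start regions and ranked 5283 among the rows, with a -log10 q of 4.71. Outside the window, the nearest other cKO region lay 2.76 kb beyond the end of the gene, at the start of Cenph, with a fold of 4.56.

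The A-type cyclins had the lowest folds. Ccna1, which encodes the germ cell cyclin A1, is ENSMUSG00000027793 on the minus strand at chr3:55045469-55055501. Its region, chr3:55055081-55055563, was the widest of the 6 at 483 bp and ran from 62 bp upstream to 420 bp into the gene, over 2 of 6 starts, 250 bp of exon and 171 bp of intron. The fold was 3.36, above 23.0% of start regions and ranked 9201 among the rows, with a -log10 q of 2.97. An antisense gene, 4931419H13Rik, starts 259 bp inside Ccna1 and within the same region, so the region cannot be assigned to one of them.

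Ccna2, which encodes the broadly used cyclin A2, is ENSMUSG00000027715 on the minus strand at chr3:36564865-36572150. Its region, chr3:36571918-36572305, was 388 bp wide, with 155 bp upstream and 233 bp in exon, and covered 3 of 5 starts. The fold of 3.00 and the -log10 q of 2.29 were the lowest of the 6, and the fold exceeded that of 12.5% of start regions. Among the rows it ranked 10547 of 12183.

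Cdk1 encodes the kinase that all of these cyclins can activate. It is ENSMUSG00000019942, on the minus strand at chr10:69335146-69352938. Its region, chr10:69352260-69352528, was the narrowest at 269 bp and the only one of the 6 that covered none of its gene's starts, lying 375 bp from the nearest of 7. All 269 bp were intronic, from 410 to 678 bp into the gene. The fold was 4.69, above 70.1% of start regions and ranked 3444 among the rows, with a -log10 q of 5.69. No other cKO region lay within 100 kb of the Cdk1 start.

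Cdk2 encodes a kinase that pairs with cyclins A and E and is needed in meiosis at telomeres and crossover sites. It is ENSMUSG00000025358, on the minus strand at chr10:128697939-128705031. Its region, chr10:128704840-128705231, was 392 bp wide, centred 4 bp upstream of the first start, and covered 5 of 6 starts with 200 bp upstream and 192 bp in exon. The fold of 4.36 exceeded that of 60.9% of start regions, but the -log10 p of 5.84 exceeded that of only 23.7%, and the -log10 q was 2.72. Fold and significance therefore placed Cdk2 differently, above Ccnb1 by fold and below Ccna1 by -log10 q. The region also covered the start of Pmel, a pigment cell gene that begins 149 bp upstream in the opposite direction, so it belongs to both genes by position. The nearest region outside the window was 1.61 kb beyond the end of Cdk2, at the start of Rab5b, with a fold of 6.88.

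**Figure D2:**
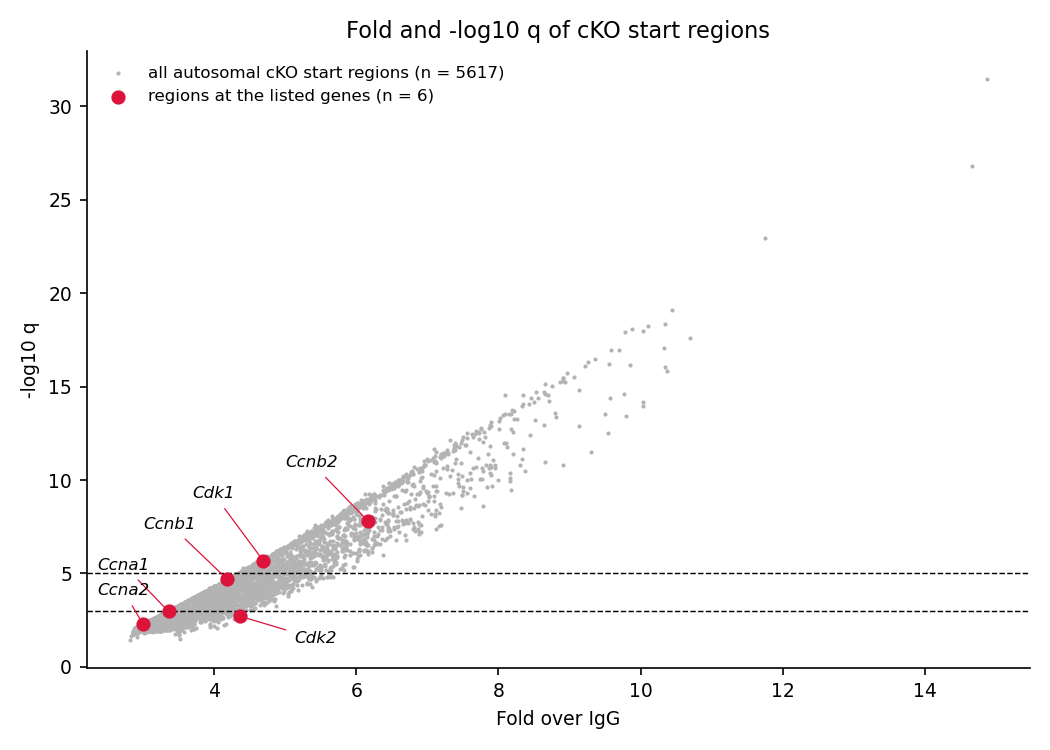
Fold over IgG (x axis) against -log10 q (y axis) for all 5617 autosomal cKO start regions (grey points) and the 6 regions at the listed genes (red, labelled), with dashed lines at a -log10 q of 3 and 5. Ccnb2 and Cdk1 lie above both lines, Ccnb1 lies between them, and Ccna1, Ccna2 and Cdk2 lie below both, Cdk2 on the lower edge of the grey points.

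Each of the 6 regions was made of 2 overlapping rows with the same peak name, fold, p and q, as happens when a peak of 1 library is overlapped with peaks of 2 others. Of all autosomal start regions, 89.6% had at least 2 rows. The row pairs at Ccna2 and Cdk1 were identical in extent, while those at Cdk2 were 252 and 392 bp wide and those at Ccna1 were 329 and 483 bp. The values of a pair are thus 1 measurement, not 2 replicates. A row can also be shorter than the called peak whose fold, p and q it carries. Widths, bases of exon and intron and starts covered are therefore those of the deposited rows. The called peaks may extend further, also at Cdk1.

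The stringency of the peaks changed the count. With only rows of a -log10 q of at least 3, the genes with a start region were Ccnb1, Ccnb2 and Cdk1, 3 of 10 beside a background of 20.8%. At a -log10 q of at least 5 they were Ccnb2 and Cdk1, 2 of 10 beside a background of 9.56%. Ccnb2 alone was left at 6 and up to 7.5, and none of the 10 at 8. Ccna1 missed the threshold of 3 by a small margin, at 2.97.

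**Figure D3:**
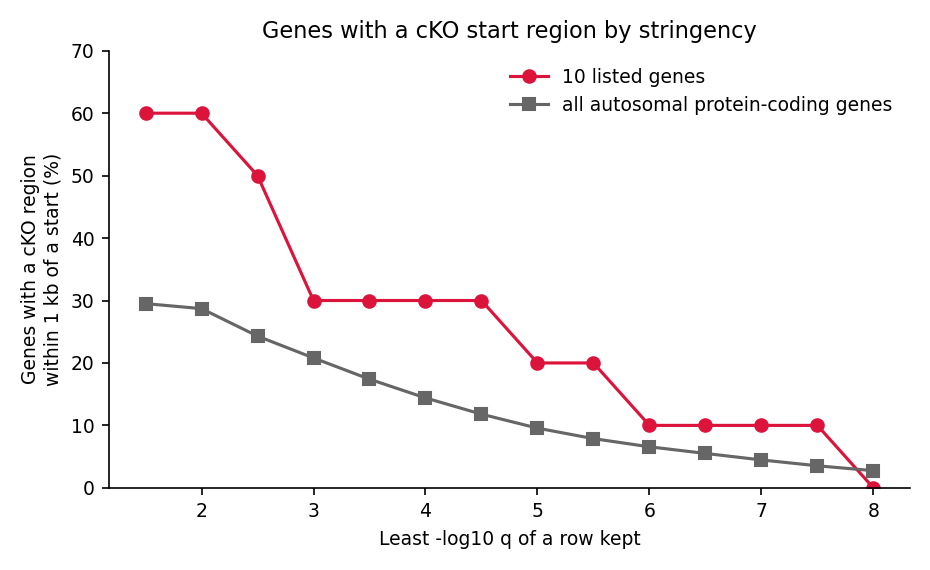
Percentage of the 10 listed genes (red circles) and of all autosomal protein-coding genes (grey squares) with an Arid1a cKO region within 1 kb of a start, against the least -log10 q of a row kept. The listed genes go from 60% at 1.5 to 30% at 3 and 20% at 5, and all genes from 29.5% to 20.8% and 9.56%.

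The 4 genes without a region differed in how far away the nearest one lay. Plk1, the Polo-like kinase of prophase exit, is ENSMUSG00000030867 on the plus strand at chr7:122159439-122169873, and the nearest cKO region was 57.4 kb away at the start of Ndufab1, with a fold of 8.00. Aurkb, the Aurora kinase of the chromosomal passenger complex, is ENSMUSG00000020897 on the plus strand at chr11:69045647-69051664, and the nearest region lay 7.99 kb away at the start of Borcs6, with a fold of 4.41. Aurkc, its germ cell paralogue, is ENSMUSG00000070837 on the plus strand at chr7:6995300-7003091. No cKO region lay within 100 kb of its start, and the nearest was 265 kb away at the Peg3 and Usp29 starts, with a fold of 3.23. Cdc25c, a phosphatase that activates CDK1, is ENSMUSG00000044201 on the minus strand at chr18:34732993-34751533, and the nearest region lay 7.83 kb away at the start of Fam53c, with a fold of 4.72. Regions were therefore listed in the neighbourhood of Plk1, Aurkb and Cdc25c, but not at their starts. A gene that is not in a list has no region that passed in the replicates, which does not show that H3.3 is absent there.

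Transcripts of other genes start close to 2 of these 4 genes. The antisense gene Gm15489 starts 38 bp upstream of Plk1, and the lincRNA 2010110K18Rik starts 379 bp upstream of Cdc25c. Neither start had a cKO region.

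The absence of WT regions has to be read against the lists themselves. In averaged coverage, the paper found H3.3 over IgG at the starts of autosomal genes regulated by ARID1A. That signal appeared higher in cKO than in WT cells, so a lack of WT regions is not a lack of H3.3. Coverage at the 10 genes was not examined here. The lowest fold in the WT list was 4.85, and 5 of the 6 cKO regions (all but Ccnb2) had a cKO fold under that value, as did 73.7% of all autosomal cKO start regions. No row of the WT list had a -log10 p under 6.12, and the regions of Ccna2 and Cdk2 had values under that. By -log10 q the comparison differed. The weakest value in the WT list was 2.2, and all 6 cKO regions were over it, the lowest being Ccna2 at 2.29. The nearest autosomal WT region was 19574.4 kb from Ccnb2, and chromosomes 7, 10, 11, 13 and 18, which carry the other members outside chromosome 3, had none. The paper reports that spermatocytes lacking ARID1A arrested at mid-pachynema, so the WT and cKO cells may differ in substage. The genotype, the number of libraries combined, the depth and any difference in substage cannot be told apart from these lists.

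The base composition of the starts was set beside the presence of a region. Within 500 bp of the first start, the observed over expected CpG count was 0.77 at Ccna1, 0.92 at Ccna2, 0.75 at Ccnb1, 0.73 at Ccnb2, 0.53 at Cdk1 and 0.74 at Cdk2. It was 0.77 at Plk1, 0.81 at Aurkb, 0.36 at Aurkc and 0.70 at Cdc25c. Over all genes the share with a cKO start region was 3.91% where this ratio was under 0.3, 14.8% from 0.3 to 0.6, 51.2% from 0.6 to 0.9 and 63.4% at 0.9 and over. Plk1, Aurkb and Cdc25c thus fell in the same class as Ccna1, Ccnb1, Ccnb2 and Cdk2, while Aurkc shared its class with Cdk1. GC content was between 53.2% (Ccnb2) and 68.2% (Ccna1) at the 6 genes with a region and between 49.0% (Cdc25c) and 57.9% (Plk1) at the 4 without, so the groups overlapped. Over all genes the share with a region was 14.3% at a GC content of 45 to 55%, the class of Aurkb, Aurkc, Cdc25c and Ccnb2. It was 45.6% from 55 to 65%, the class of Plk1, Ccna2, Ccnb1, Cdk1 and Cdk2, and 55.7% at 65% and over, the class of Ccna1. The part of base composition in the presence of a region was not tested.

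**Figure D4:**
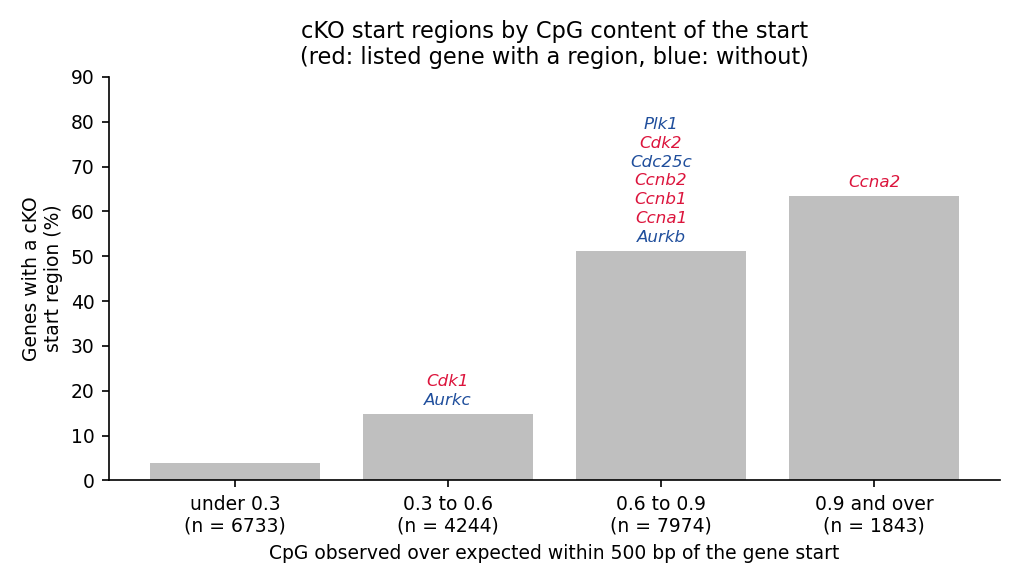
Percentage of autosomal protein-coding genes with an Arid1a cKO start region (bars, n under each) by the observed over expected CpG count within 500 bp of the gene start. Names above a bar are the listed genes in that class, red with a region and blue without, and their height carries no value. Plk1, Aurkb and Cdc25c stand in a class where 51.2% of genes had a region.

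Reads from repeated sequence can be placed at several positions, and no filter on mapping quality was described. Of the 50-base words in the 6 regions, 100% were unique in the genome at Ccna1, Ccna2, Ccnb2, Cdk1 and Cdk2, and 99.5% at Ccnb1. Within 1 kb of the start, 99.8% of the words were unique at Plk1, 100% at Aurkb and 97.7% at Cdc25c. At Aurkc 64.0% were unique, the lowest of the 10 genes, with up to 11 copies of a word. In the same window around genes with a region, the share was 100% at Ccna1, Ccna2 and Cdk2, 96.2% at Cdk1, 96.0% at Ccnb2 and 85.5% at Ccnb1. Single words there had up to 9538 copies at Cdk1 and Ccnb2 and 3079 at Ccnb1. The part of repeated sequence in the absence of an Aurkc region was not tested.

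Promoter sequences were taken from RefSeq (GRCm38.p6), with 250 bases before and 50 after a RefSeq start, and 7 of the 10 genes matched. Ccna2, Aurkb and Cdc25c were not among them. Shown here are the 3 promoters whose printed bases a cKO region overlaps (Ccnb1, Ccnb2 and Cdk2), and those of Cdk1, whose region lies downstream, and Plk1, which has no region. Each ends at most 30 bases past the first GENCODE start, and the Ccna1 window is left out because it lies inside annotated Ccna1 transcripts. The Aurkc promoter, with no region and no match up to that limit, is not shown either. The capitals mark matches, on either strand, to CCAAT (the box bound by NF-Y), TTTGAA (the cell cycle homology region), CAACNG or TAACNG (the MYB core) and TGACG (the CRE core). Matches were counted over each whole window, so some lie past the printed bases. In the promoters shown these are TTTGAA of Plk1, at position 31 from the RefSeq start, and the MYB core of Ccnb1, at position 8.
Ccnb1, chr13:100786541-100786736, minus strand: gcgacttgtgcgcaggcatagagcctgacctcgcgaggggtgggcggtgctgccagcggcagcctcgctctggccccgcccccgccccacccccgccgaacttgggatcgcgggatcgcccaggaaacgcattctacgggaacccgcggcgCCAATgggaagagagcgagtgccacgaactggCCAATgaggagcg
Ccnb2, chr9:70421518-70421804, minus strand: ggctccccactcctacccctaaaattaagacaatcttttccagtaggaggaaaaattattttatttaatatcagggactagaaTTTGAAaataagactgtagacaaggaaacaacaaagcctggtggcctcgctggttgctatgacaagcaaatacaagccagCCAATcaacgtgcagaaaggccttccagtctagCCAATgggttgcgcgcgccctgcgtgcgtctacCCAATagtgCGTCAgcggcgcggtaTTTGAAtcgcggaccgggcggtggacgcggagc
Cdk2, chr10:128705002-128705301, minus strand: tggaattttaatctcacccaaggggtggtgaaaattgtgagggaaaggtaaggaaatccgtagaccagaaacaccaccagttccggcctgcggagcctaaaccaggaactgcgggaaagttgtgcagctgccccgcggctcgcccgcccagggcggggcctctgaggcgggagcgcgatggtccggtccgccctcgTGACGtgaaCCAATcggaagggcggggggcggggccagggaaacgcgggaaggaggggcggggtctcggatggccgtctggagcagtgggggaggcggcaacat
Cdk1, chr10:69352909-69353162, minus strand: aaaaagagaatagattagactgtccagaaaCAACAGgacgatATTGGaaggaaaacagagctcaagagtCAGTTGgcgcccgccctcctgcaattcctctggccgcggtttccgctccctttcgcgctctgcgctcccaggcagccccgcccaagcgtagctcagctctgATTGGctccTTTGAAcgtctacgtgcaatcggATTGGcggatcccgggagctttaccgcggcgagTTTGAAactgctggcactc
Plk1, chr7:122159185-122159468, plus strand: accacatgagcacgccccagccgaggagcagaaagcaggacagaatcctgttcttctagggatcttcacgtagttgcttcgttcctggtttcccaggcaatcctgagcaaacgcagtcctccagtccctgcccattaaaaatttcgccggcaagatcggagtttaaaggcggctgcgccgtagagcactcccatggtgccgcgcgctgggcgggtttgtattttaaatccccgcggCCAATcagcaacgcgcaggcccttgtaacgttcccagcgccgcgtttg

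The cKO regions covered all 196 printed bases of Ccnb1, the last 131 of 287 at Ccnb2 and the last 230 of 300 at Cdk2, and none of those printed for Cdk1 and Plk1. All 7 promoter windows held CCAAT, against 37.3% of the 31396 RefSeq windows on the autosomes other than 18. At Aurkc the match began at position 25, past the RefSeq start, and the RefSeq start of the Ccna1 window lies 446 bp inside the gene. The count of 7 is thus one of windows and not of matches upstream of a first start. Ccnb2 and Cdk1 held 3 copies each, Ccnb1 held 2, and Cdk2, Plk1, Ccna1 and Aurkc held 1. In Ccnb2 the first letters of neighbouring CCAAT copies stood 33 and 33 bases apart on the same strand, and in Ccnb1 and Cdk1 a pair stood 32 bases apart. A same-strand pair spaced by 31 to 34 bases occurred in 0.908% of all windows. That spacing was examined after the matches had been seen and carries no test.

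TTTGAA occurred in 3 of the 7 windows (Ccnb2, Cdk1 and Plk1), against 17.6% of all windows. In Cdk1 it stood at positions -71 and -15 from the RefSeq start and in Ccnb2 at -167 and 5. The MYB core occurred in 3 of 7 (Ccna1, Ccnb1 and Cdk1), against 49.2%, and TGACG in 2 of 7 (Ccnb2 and Cdk2), against 21.0%. The windows of Cdk1 and Plk1 held the same CCAAT and TTTGAA letters as Ccnb2, with no cKO region over them, although TTTGAA of Plk1 lies past its printed bases. TGACG occurred in the windows of Ccnb2 and Cdk2, which a region overlapped, but not in those of Ccna1 and Ccnb1, which a region also overlapped. Overlap of a promoter window with a cKO region was found for 4 of 7 genes (Ccna1, Ccnb1, Ccnb2 and Cdk2), against 16.0% of all windows. The windows were not limited to protein-coding genes and a gene could have several, so shares of windows differ in unit from the gene backgrounds above. These matches are descriptions of letters and not of bound sites.

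The other genes of the division pathway were taken from a fixed list of 74, of which 73 matched an annotated symbol (Speedya did not). Of the 72 autosomal matches, 43 had a cKO start region, or 59.7%, beside the background of 29.5%. The median fold at these 43 was 4.32. At a -log10 q of at least 3 there were 33 of the 72, beside a background of 20.8% of all autosomal protein-coding genes. None of the 72 had a WT region, beside a background of 0.00961%. The X-linked cyclin gene Ccnb3 had no region in either list. The share among the 10 listed genes, 6 of 10, was thus close to that of the wider list when all rows were kept. At a -log10 q of at least 3 it was 3 of 10, a lower share than the 33 of 72.

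Regulators of CDK1 had a start region in 4 of 9 genes, or 44.4%. The background of 29.5% stands beside this and each of the group counts that follow. The highest folds were 7.01 at Wee1, the kinase that inhibits CDK1, 4.32 at Cdc25a, a CDK-activating phosphatase, and 4.15 at Hspa2, a chaperone of spermatocyte CDK1. Cdc25b, Cks1b, Cks2, Cdkn1a and Cdkn1b had none, so among the Cdc25 phosphatases only Cdc25a had a region. In the Greatwall and PP2A group, in which the Greatwall kinase restrains the phosphatase that reverses CDK1 phosphorylation, 6 of 7 genes had a region. Folds reached 7.59 at Ppp2r1a and 5.18 at Ppp2ca, the PP2A scaffold and catalytic subunits, and 7.47 at Mastl, the Greatwall kinase. Ensa, a Greatwall substrate, had none.

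Among other division kinases and their activators, 6 of 10 had a region, with folds of 5.65 at Ttk, the checkpoint kinase, 5.27 at Aurka and 5.10 at Plk2. Plk4, another Polo gene, also had a region, with a fold of 5.01. Aurka, Plk2 and Plk4 are paralogues of Aurkb, Aurkc and Plk1, so the Aurora and Polo families each held genes with and without a region. Bora, Tpx2, Plk3 and Haspin had none. In the chromosomal passenger complex, where Aurkb and Aurkc act, Birc5 had a fold of 4.30 and Incenp one of 3.97, while Cdca8 had no region. Of the 3 partners, 2 thus had a region, while neither kinase gene had one.

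Genes of the APC/C, the spindle checkpoint and cohesion release had a region in 14 of 21 cases, with the highest folds of 6.90 at Fzr1, an APC/C activator, 6.34 at Bub3, a checkpoint protein, and 5.48 at Anapc2, an APC/C subunit. Transcription factors of G2/M genes had one in 7 of 11. The folds were 7.89 at Nfya and 7.74 at Nfyc, which encode subunits of the CCAAT-binding NF-Y, and 5.57 at Mybl1, the meiotic A-MYB. Foxm1, Lin37, Lin54 and Nfyb had none. Cyclins and CDKs of other phases had a region in 4 of 11 genes, or 36.4%, near the background of 29.5%. The folds were 5.08 at Ccne2, 4.32 at Cdk4 and 3.21 at Ccne1.

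**Figure D5:**
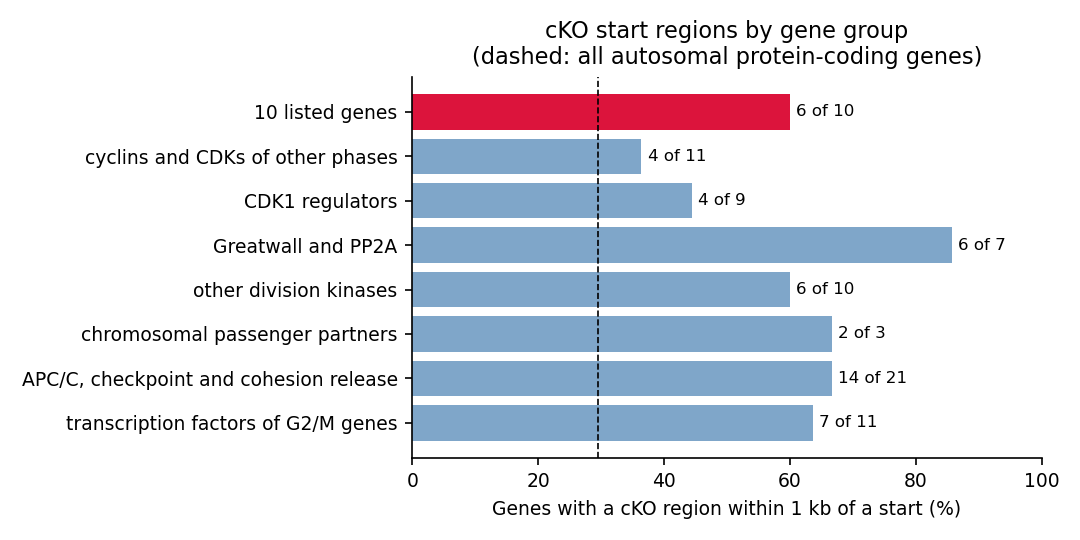
Percentage of genes with an Arid1a cKO region within 1 kb of a start among the 10 listed genes (red) and in 7 autosomal groups of the wider list (blue), with the counts beside the bars. The dashed line marks 29.5% of all autosomal protein-coding genes, and the bars run from 4 of 11 cyclins and CDKs of other phases to 6 of 7 Greatwall and PP2A genes.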

How the data were processed

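H3.3 CUT&RUN reads had been trimmed, aligned to mm10 with bowtie2 and stripped of PCR duplicates by the authors, who used MACS2 to call broad peaks against IgG reads of pachytene-enriched cells of juvenile testes from an earlier study and intersected the replicates. The deposited rows give a fold (ratio of pileups), a -log10 p and a -log10 q. A deposited score column was not used here. Unmatched per-sample columns numbered 0.

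Rows sharing 1 bp or more were joined into regions, each with the highest value of its rows. A gene was counted if a region overlapped the 1 kb on either side of any GENCODE M21 transcript start, with the matching count over all autosomal protein-coding genes as background. Coordinates are 1-based on mm10 (GRCm38), whose reference matched. The overlap function gave 0 differences from a brute force count in 2000 simulated queries. Copies of 50-base words were counted on both strands of the assembled chromosomes. The members and gene lists were chosen with earlier results of these data known. All 10 members are named throughout. Of the wider list, those named are the top 3 by fold of each group and, if 5 or fewer, the genes of a group that lacked a region. Plk4 is named as well, to complete the Polo family. Alternatives covered the window, the starts used, -log10 q thresholds of 3 and 5, support by 2 rows, and the unit of fold, width and percentile. Python 3.11.15 was used with pandas 2.3.3, numpy 2.4.6, numba 0.67.0, matplotlib 3.10.9 and scipy 1.17.1.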

Additional observations from a re-analysis of the deposited data

How the results depend on the processing

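The count of 6 genes with an Arid1a cKO start region was 6 with a window of 500 bp or 2 kb, with starts of protein-coding transcripts only, with support by at least 2 rows and with the region centre in place of its edge, the last chosen after seeing the data. It was 5 where the region had to cover the start, without Cdk1, and 5 with 1 RefSeq start per gene, without Ccna1, whose RefSeq gene bounds begin 2133 bp upstream of the first GENCODE start and 2.07 kb from its region. It fell to 3 at a -log10 q of at least 3 and to 2 at a -log10 q of at least 5, and so did the count with regions in the gene included, to 3 and 2. The share of all autosomal protein-coding genes, 29.5%, became 28.9% at 500 bp, 22.8% where the region had to cover the start, 20.8% and 9.56% at the -log10 q thresholds, 27.1% with at least 2 rows and 26.4% with RefSeq starts. The median fold stayed at 4.27 with rows or width-weighted means, the median width became 333 bp with single rows, and the median percentile ranged from 48.9 to 59.8. The WT count was also 0 with a window of 5 kb or a -log10 q threshold of 3. No replicate could be left out. No paired analysis was possible because the replicates had been combined into 1 list. Depth is unknown, so a gene outside a list has no upper limit on its H3.3.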
